A study of Mus musculus with 4 samples.

Results

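The miR-183 cluster and the miR-204 and miR-211 pair are miRNAs of the retina, the pigment epithelium and the sensory organs. Small RNA libraries of the rostral-most telencephalic primordium at E11.5 hold counts for 1059 mature miRNAs, and the 5 described here were chosen by name: mmu-miR-96-5p, mmu-miR-182-5p, mmu-miR-183-5p, mmu-miR-204-5p and mmu-miR-211-5p, written below without the species prefix. Each was found once, as the 5p arm of a single hairpin. The mutants were RxCre-DicerF/F embryos, called Rx-Dicer here, in which the floxed Dicer allele (Dicer1tm1Bdh/J) is cut by a Cre recombinase under regulatory sequences of Rx. The controls were DicerF/F littermates without Cre, which the library labels call WT. There were 2 libraries of each genotype, with the Rx3-Cre line kept on CD1 and the floxed line on C57BL/6, and the number of embryos behind a library is not given in the sources used here. Rx itself is best known from the developing retina. By the study's account recombination at this age was strong in rostral and ventral telencephalon and weak in the neocortex, so a mutant library can hold cells that kept Dicer. Small RNA counts hold no value for Dicer itself, so its loss was not checked here. The study reported Dicer substantially reduced in the mutants' rostral telencephalon by in situ hybridization, at a later age than these libraries. Loss of Dicer and presence of Cre go together in these groups and cannot be told apart.

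miR-183, miR-96 and miR-182 are made from 1 primary transcript. They are abundant in photoreceptors, in the hair cells of the inner ear and in olfactory and other sensory neurons, and mutations in the seed of miR-96 cause progressive hearing loss. miR-204 and miR-211 are the characteristic miRNAs of the retinal pigment epithelium and of melanocytes, and miR-204 is also abundant in the choroid plexus and the lens. Dicer cuts the hairpins of all of them into the mature form, and mature miRNAs made before Dicer is lost can persist.

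The mature sequences are shown because the seed, bases 2 to 8 from the 5′ end and given in capitals, decides which sites a miRNA can pair with, and because near-identical sequences can share reads. All 5 were found in RefSeq (GRCm38.p6).
miR-183-5p: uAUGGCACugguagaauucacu
miR-96-5p: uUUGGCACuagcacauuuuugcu
miR-182-5p: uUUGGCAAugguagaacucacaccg
miR-204-5p: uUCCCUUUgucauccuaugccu
miR-211-5p: uUCCCUUUgucauccuuugccu
miR-96-5p and miR-182-5p were identical over their first 7 bases and differed in the last base of the seed, while the rest of the sequences diverged. miR-182-5p and miR-183-5p had different seeds and were alike in the remainder, with 18 identical bases of the 22 compared and the substitutions U2A, A8C, C17U and A22U (miR-182-5p first, positions counted from 1 at the 5′ end). miR-204-5p and miR-211-5p had the same seed and differed at 1 of 22 bases, A17U, so a read with a single error at that base fits the other member. Their counts are therefore less certain than those of the cluster, where the closest pair differed at 4 bases. Of the 1679 mature miRNAs in the RefSeq table, miR-1271-5p has the seed of miR-96-5p and miR-7670-3p that of miR-204-5p. Neither was among the rows used here, so miR-204 and miR-211 were the only measured pair with a common seed.

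The 3 hairpins of the cluster lie on the minus strand of chromosome 6 (GRCm38), in the order Mir183 (30169668 to 30169737), Mir96 (30169446 to 30169551) and Mir182 (30165918 to 30165992) along the direction of transcription. Mir183 and Mir96 are 116 bases apart and Mir182 lies 3453 bases further on. In the GENCODE M21 annotation no other gene overlaps them. They sit between Nrf1 and Ube2h, with the long non-coding RNA gene Rncr4 on the opposite strand 3156 bases from Mir183. Mir204 (chromosome 19, 22750605 to 22750672) lies in an intron of Trpm3, and Mir211 (chromosome 7, 64205806 to 64205911) lies in an intron of Trpm1. Both host genes encode TRP channels, and both hairpins are on the strand of their host.

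The libraries held 651031 and 516517 miRNA counts in Rx-Dicer 1 and 2, and 1299067 and 1133553 in control 1 and 2, when 1 row per mature miRNA was kept. Levels are given as scaled CPM, a count divided by its library's total on the usual CPM scale, with the total scaled by edgeR's TMM method, whose factors were 1.17, 1.14, 0.926 and 0.814 in the same order. A level is thus relative to the other miRNAs of its library, and a fall common to all miRNAs would not appear in it. As a floor, 3 counts correspond to 2.49 to 5.12 scaled CPM, depending on the library. Intervals for single libraries are 95% Wilson intervals on the counts and cover counting error only. miR-9-5p, a miRNA of forebrain progenitors, was at 240963 to 524056 scaled CPM, and the other 5 listed forebrain miRNAs had counts in every library, from 1 count upwards. The labels number the libraries as replicates. The study calls replicates of its mRNA heat maps independent, but for the small RNA libraries the embryos are not given in the sources used here. A p-value therefore measures only the spread between these libraries, which may in part be technical.

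miR-182-5p and miR-183-5p were the abundant members. miR-182-5p, a miRNA of photoreceptors and sensory neurons, had 580 counts in Rx-Dicer 1, 4617 in Rx-Dicer 2, 1823 in control 1 and 3298 in control 2. As scaled CPM this was 762 and 7873 in the mutants and 1515 and 3576 in the controls. The mutant libraries were thus the lowest and the highest of the 4, and the controls lay between them. miR-183-5p, its partner from the same transcript, had 421 and 3608 counts in the mutants and 2151 and 3016 in the controls, or 553, 6152, 1788 and 3270 scaled CPM. The order of the libraries was the same. By counts, miR-182-5p ranked 24th in Rx-Dicer 2 and 76th in Rx-Dicer 1 among all mature miRNAs, and 57th and 42nd in the controls.

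miR-96-5p, the member whose seed is mutated in inherited deafness, was far lower. Its counts were 7 and 23 in the mutants and 10 and 41 in the controls, or 9.20, 39.2, 8.31 and 44.5 scaled CPM. The second library of each genotype was high and the first was low, and the genotypes overlapped. The Wilson intervals of the shares did not overlap between the first and second library of a genotype (5.21 to 22.2 against 29.7 to 66.8 unscaled CPM in mutants, and 4.18 to 14.2 against 26.7 to 49.1 in controls).

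**Figure D1:**
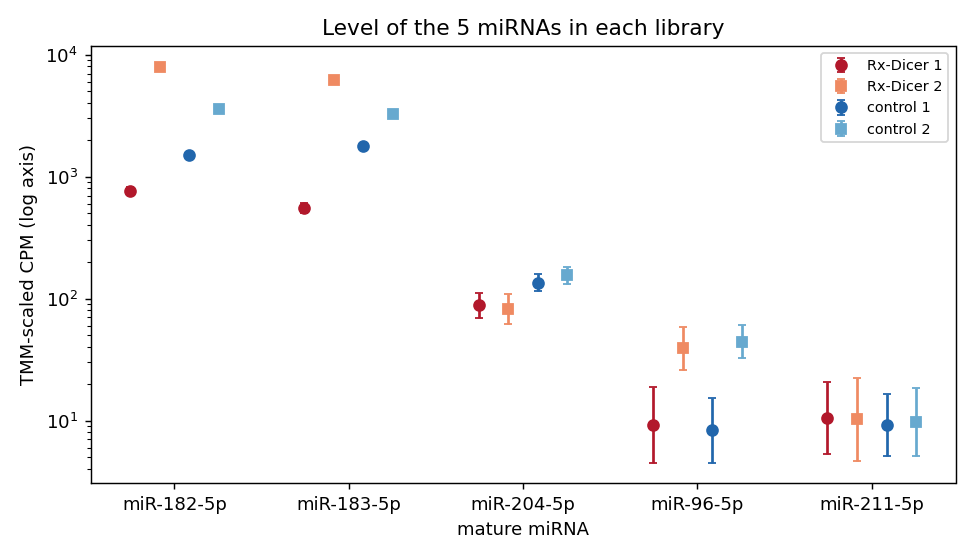
Scaled CPM (log axis) of the 5 miRNAs in the 4 libraries. Points are libraries and bars are 95% Wilson intervals, which cover counting error only. miR-182-5p and miR-183-5p range from 553 to 7873 with the mutant libraries outside the controls on both sides, while the mutant libraries of miR-204-5p (88.1 and 81.8) lie below the controls (135 and 155).

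The comparison of genotypes asks whether these miRNAs were depleted, relative to the others, when Dicer was removed from the Rx lineage. Of the 5 members, 4 reached the minimum of 10 counts in at least 2 libraries and were tested among 274 miRNAs. In edgeR's quasi-likelihood test, with p-values adjusted by the Benjamini-Hochberg method, 0 members were lower and 0 higher at an adjusted p of 0.05, where 2.55% of the 274 were called lower and 0% higher. Without adjustment, 1 member (miR-204-5p) was lower and 0 were higher, against 8.39% and 1.09% of all tested. The fitted change was negative for 2 of the 4 (miR-96-5p and miR-204-5p), against 45.6% of all tested. DESeq2's Wald test on the same miRNAs also called 0 members, where 11 of the 274 were called lower and 0 higher.

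For miR-182-5p the mutant mean was 4318 ± 5028 scaled CPM and the control mean 2545 ± 1457 (SD, n = 2 each). The log2 fold change of Rx-Dicer over control was 0.76 with a standard error of 0.90 (adjusted p = 0.815, edgeR). For miR-183-5p the means were 3353 ± 3959 and 2529 ± 1048 (SD, n = 2 each), and the log2 fold change was 0.41 with a standard error of 0.88 (adjusted p = 0.922, edgeR). For miR-96-5p they were 24.2 ± 21.2 and 26.4 ± 25.6 (SD, n = 2 each), with a log2 fold change of −0.13 and a standard error of 0.88 (adjusted p = 0.990, edgeR). In each of these miRNAs the fitted change was smaller than its standard error, and the difference between the mutant libraries exceeded that between the genotype means. An error of this size leaves the sign of the change undetermined.

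The direction for the cluster was set by the choice of library. Direction here is that of the fitted log2 fold change. Without Rx-Dicer 2 the values were −1.74 for miR-182-5p and −2.19 for miR-183-5p, and without Rx-Dicer 1 they were 1.63 and 1.28. In an edgeR fit on the 3 libraries without Rx-Dicer 2, miR-183-5p moved to a call of lower. That fit assumes that the lone mutant varies as the controls do. No call is therefore drawn from it or from the fit without Rx-Dicer 1. miR-96-5p was at −1.46 without Rx-Dicer 2, at 0.61 without Rx-Dicer 1, at −0.89 without control 1 and at 1.47 without control 2.

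**Figure D2:**
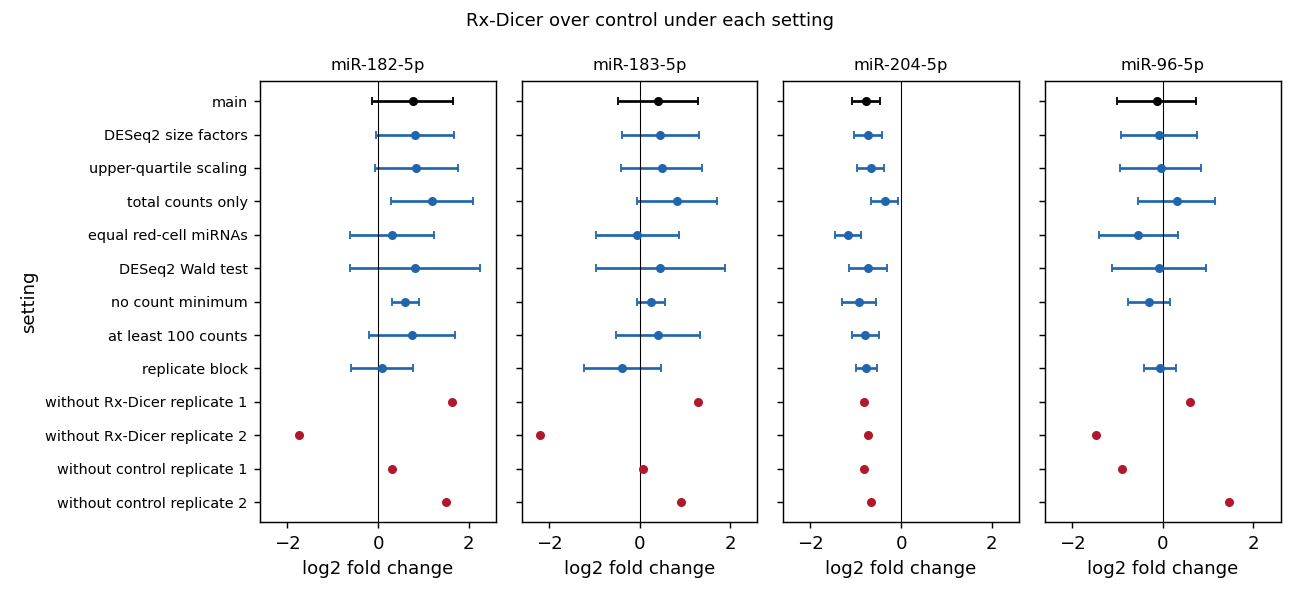
Log2 fold change of Rx-Dicer over control for the 4 tested members (horizontal axes) under each setting (rows). Black is the fit reported in the text, blue the alternatives and red the fits without 1 library; bars are standard errors where a test was made. miR-182-5p moves between −1.74 and 1.63 and miR-183-5p between −2.19 and 1.28 when a library is left out, whereas miR-204-5p stays between −0.83 and −0.67.

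The difference between the mutant libraries was among the widest of all miRNAs tested. On the log2(scaled CPM + 1) scale, miR-183-5p was 11.1-fold and miR-182-5p 10.3-fold higher in Rx-Dicer 2 than in Rx-Dicer 1, ranks 3 and 4 of 274 by size, and miR-96-5p was 3.94-fold higher, rank 6. The median difference between the mutant libraries was 1.22-fold and its 95th percentile 2.48-fold. Between the controls, miR-96-5p was 4.88-fold higher in control 2 (rank 1), miR-182-5p 2.36-fold (rank 15) and miR-183-5p 1.83-fold (rank 37), where the median was 1.33-fold. miR-204-5p differed by 1.08-fold between mutants and 1.14-fold between controls, both under the median.

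**Figure D3:**
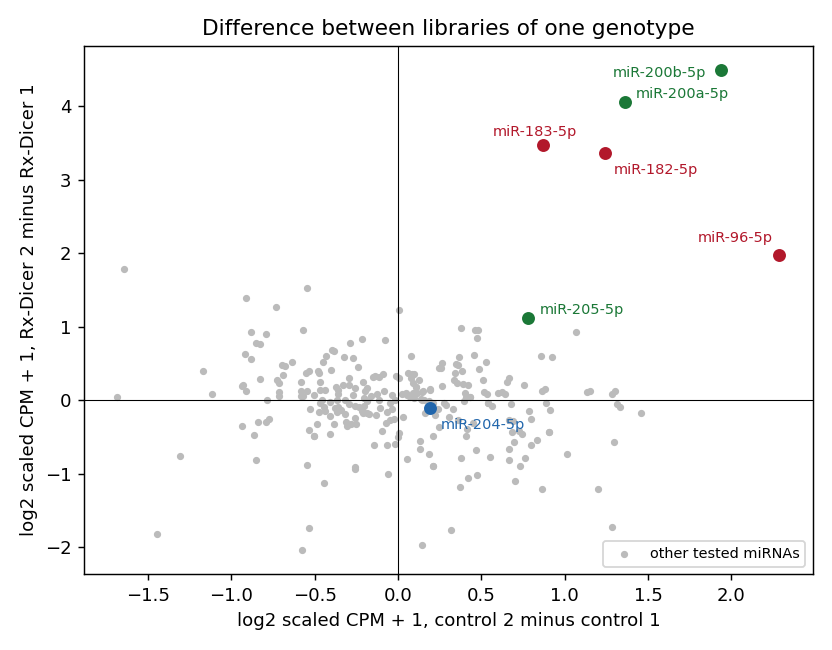
Difference between the 2 libraries of a genotype for 274 miRNAs, on the log2(scaled CPM + 1) scale: controls on the horizontal axis, mutants on the vertical axis. Members of the miR-183 cluster (red) and miR-200a-5p, miR-200b-5p and miR-205-5p (green) are higher in the second library of both genotypes, and miR-204-5p (blue, −0.10 in mutants and 0.19 in controls) lies near the origin.

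The members of the cluster kept their proportions better than their levels. Among the counts of the 3 miRNAs, miR-182-5p made up 57.5% (54.5 to 60.6) and 56.0% (54.9 to 57.0) in Rx-Dicer 1 and 2, although the level differed 10.3-fold between these libraries. In control 1 and 2 the shares were lower, 45.8% (44.2 to 47.3) and 51.9% (50.7 to 53.1). The ratio of miR-182-5p to miR-183-5p, which does not depend on scaling, was 1.38 and 1.28 in mutants and 0.848 and 1.09 in controls. Both mutants lay above both controls, but the controls were further apart than control 2 and Rx-Dicer 2. Of single tested miRNAs, 17.9% had both mutants above both controls, and the share among other ratios was not computed. miR-96-5p was 0.251% to 0.694% of the cluster's counts. There were 82.9 and 201 counts of miR-182-5p per count of miR-96-5p in the mutants and 182.3 and 80.4 in the controls, with no separation by genotype. Capture of small RNAs by adapters differs between sequences, so these ratios compare libraries and do not give numbers of molecules. The summed cluster took 0.155%, 1.60%, 0.307% and 0.561% of all miRNA counts in Rx-Dicer 1 and 2 and control 1 and 2.

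To see which other miRNAs varied in this way, the tested miRNAs were ordered by the root mean square difference of their log2(scaled CPM + 1) profiles from each member, centred on the mean over the 4 libraries. For both miR-182-5p and miR-183-5p the nearest miRNA was the other of the pair (0.27), and the nearest non-members were miR-200a-5p (0.32 and 0.27) and miR-200b-5p (0.59 and 0.54). The third was more distant, miR-144-5p for miR-182-5p (0.87) and miR-1969 for miR-183-5p (0.85). For miR-96-5p the nearest non-members were miR-144-5p (0.57), miR-205-5p (0.74) and miR-3062-5p (0.74). The miR-200 family is known for its abundance in epithelia, including the olfactory epithelium. With 4 libraries this measure only describes the resemblance, and the points share the depth and scaling of each library.

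miR-200a-5p and miR-200b-5p, whose hairpins lie 695 bases apart on the minus strand of chromosome 4 (Mir200a from 156054896 to 156054985, Mir200b from 156055681 to 156055750), are shown for comparison, with the seed in capitals.
miR-200a-5p: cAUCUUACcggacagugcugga
miR-200b-5p: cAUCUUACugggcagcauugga
They share a seed with each other and none with the 5 members. Both are the arm of the hairpin that is usually the less abundant, and the 3p arms were not analysed here. miR-200a-5p had 8 and 112 counts in the mutants and 43 and 86 in the controls, and miR-200b-5p had 4 and 82 against 27 and 82. Their differences between the mutant libraries, 16.7-fold and 22.5-fold, were the only ones of the 274 wider than those of miR-182-5p and miR-183-5p. There were 72.5, 41.2, 42.4 and 38.3 counts of miR-182-5p per count of miR-200a-5p in Rx-Dicer 1 and 2 and control 1 and 2, a narrower range than that of either level, and the first of these rests on 8 counts.

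Of 8 miRNAs listed as markers of epithelium and sensory placodes, 3 reached the count minimum (miR-200a-5p, miR-200b-5p and miR-205-5p), 4 had 0 counts in every library (miR-200c-5p, miR-429-5p, miR-203-5p and miR-184-5p), and miR-141-5p had 1 count in all. For several of these the 3p arm is the usual mature form, so a count of 0 for the 5p arm says little about the tissue. Their summed level was 235 and 808 scaled CPM in Rx-Dicer 1 and 2 and 201 and 427 in control 1 and 2. The second library was the higher of each genotype, as for the cluster and for the red-cell sum given below. miR-205-5p, a miRNA of stratified and placodal epithelium, made up most of the epithelial sum and varied less. It was at 220 and 477 scaled CPM in mutants and 142 and 245 in controls. Per count of miR-205-5p there were 3.47, 16.5, 10.7 and 14.6 counts of miR-182-5p. Between genotypes 0 of its 3 tested members were called lower or higher (2.55% and 0% over all tested). Their median log2 fold change, 0.63 against 0.04 over all 274, is the value of miR-200a-5p, whose standard error was 1.02. Its part in the cluster's values was not tested. In tissue pieces, fewer cells of a type and less RNA per cell cannot be told apart.

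**Figure D4:**
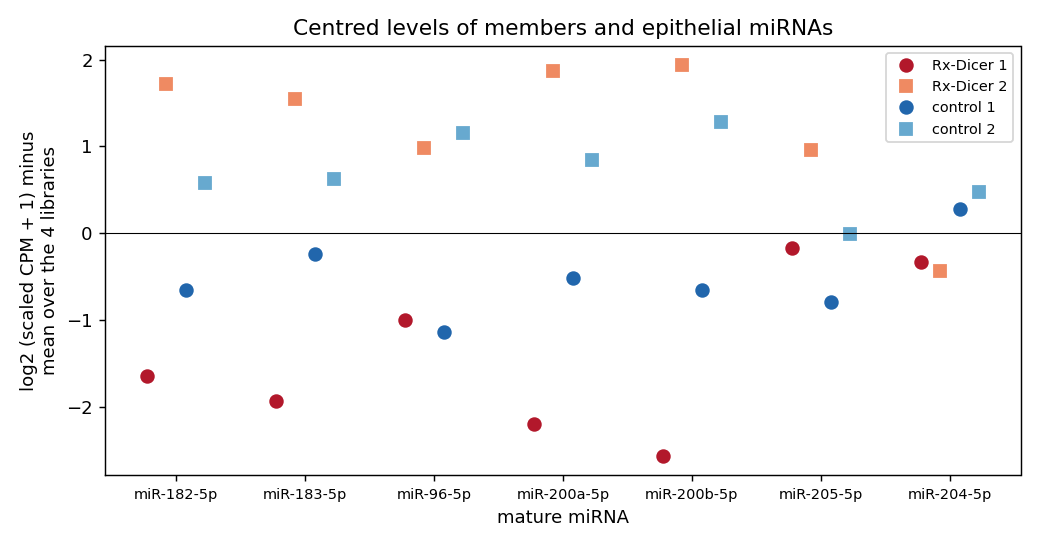
Log2(scaled CPM + 1) minus its mean over the 4 libraries (vertical axis) for 4 members and 3 epithelial miRNAs (horizontal axis). Each point is a library. In the miR-183 cluster, miR-200a-5p, miR-200b-5p and miR-205-5p the second library of each genotype (squares) is above the first (circles), and the libraries of miR-204-5p separate by genotype.

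Other cell types' markers were compared in the same libraries. The 5 listed for mesenchyme were miR-199a-5p, miR-199b-5p, miR-214-5p, miR-143-5p and miR-145a-5p. Their summed level was 11917 and 11348 scaled CPM in the mutants and 4443 and 11072 in the controls, most of it from miR-199a-5p. All 5 were higher in Rx-Dicer 1 than in Rx-Dicer 2, the reverse of the miR-183 cluster. The difference was small for miR-199a-5p (10431.5 and 10096.2 scaled CPM). It was wider for miR-143-5p (52.6 and 22.2) and miR-145a-5p (386 and 261). miR-143-3p, the other arm of miR-143 and not on the list, went the other way. It had 3250 and 2704 counts in the mutants and was 1.08-fold higher in Rx-Dicer 2 by scaled CPM. The share of all tested miRNAs that were higher in Rx-Dicer 1 was not counted. The 3 listed red-cell miRNAs summed to 7595 and 8504 in mutants and 5737 and 6362 in controls, so the second library was the higher here too. How many of all tested miRNAs had this order was not counted. Neither the mesenchyme nor the red-cell sum differed between the mutant libraries by more than 1.12-fold, where the sum of the miR-183 cluster differed 10.6-fold. Between the controls the mesenchyme sum differed 2.49-fold, the cluster 2.08-fold and the red-cell sum 1.11-fold, each higher in control 2.

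miR-204-5p, the miRNA of the pigment epithelium that is made from the Trpm3 intron, behaved otherwise. It had 67 and 48 counts in Rx-Dicer 1 and 2 and 163 and 143 in control 1 and 2. As scaled CPM this was 88.1 and 81.8 in the mutants and 135 and 155 in the controls, so both mutants lay below both controls. This was the case for 24.5% of the 274 miRNAs tested. The means were 85.0 ± 4.40 and 145 ± 13.8 (SD, n = 2 each), and the log2 fold change was −0.77 with a standard error of 0.30, a 1.71-fold lower mean level. It did not pass the threshold (adjusted p = 0.473, edgeR) and ranked 21st of the 274 by p. The value was negative under each scaling and with each library left out, with −0.36 on total counts and −1.17 when the red-cell miRNAs were set equal as the extremes. These scalings moved all miRNAs: on total counts the median over the 274 was 0.44 and 21.9% were below 0, and with equal red-cell miRNAs it was −0.37 and 84.7%. As an unscaled share, miR-204-5p was at 103 and 92.9 CPM in mutants and 125 and 126 in controls, with overlapping Wilson intervals (81.0 to 131 and 70.1 to 123 against 108 to 146 and 107 to 149).

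The profiles nearest to miR-204-5p were those of miR-301a-5p (0.093), miR-504-5p (0.100) and miR-99a-5p (0.118). Each had both mutants under both controls, which follows from their choice by likeness and held for 24.5% of all tested. The members of the miR-183 cluster were among the most distant, at ranks 269 to 271 from the nearest.

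miR-211-5p, the other member of the family and made from an intron of Trpm1, was near the limit of detection. It had 8 and 6 counts in mutants and 11 and 9 in controls, or 10.5, 10.2, 9.14 and 9.76 scaled CPM, and did not reach the count minimum. Both mutants lay above both controls, which 17.9% of the tested miRNAs also did, but the Wilson intervals overlapped throughout (5.32 to 25.3 unscaled CPM in Rx-Dicer 2 against 4.73 to 15.2 in control 1). In a fit with no count minimum its log2 fold change was −0.02 with a standard error of 0.57 (adjusted p = 0.990, edgeR), so that a difference was not detectable at this depth. There were 8.38 and 8 counts of miR-204-5p per count of miR-211-5p in mutants and 14.8 and 15.9 in controls. miR-211-5p made up 10.7% (5.50 to 19.7) and 11.1% (5.19 to 22.2) of the pair's counts in mutants and 6.32% (3.57 to 11.0) and 5.92% (3.15 to 10.9) in controls, with intervals that overlapped. Reads of miR-204-5p counted as miR-211-5p would enter these shares, and how many there were was not tested.

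In the controls the order of mean levels was miR-182-5p (2545), miR-183-5p (2529), miR-204-5p (145), miR-96-5p (26.4) and miR-211-5p (9.45), in scaled CPM. miR-182-5p and miR-183-5p overlapped, as did miR-96-5p and miR-211-5p, and miR-204-5p was separate from both pairs in every library. In the mutants the order was the same, and miR-96-5p at 9.20 in Rx-Dicer 1 was within the counting error of miR-211-5p.

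Of 9 other miRNAs listed as described in the retina, all were tested and 0 passed the threshold in either direction (2.55% of all tested were called lower). Their median log2 fold change was −0.46, against 0.04 over all 274, and ranged from −0.79 to 0.17. At an unadjusted p under 0.05, where 8.39% of all tested were lower, 2 of the 9 were lower: miR-9-5p, which acts in neural progenitors, at −0.79 with a standard error of 0.27 (adjusted p = 0.344, edgeR), and miR-124-5p, the minor arm of the main neuronal miRNA, at −0.72 with a standard error of 0.26 (adjusted p = 0.385, edgeR). Most of these miRNAs are also abundant in the telencephalon itself. The highest values among the 9 were those of miR-335-5p (−0.0027) and miR-31-5p (0.17).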

How the data were processed

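Per the labels and the paper's methods, the authors sequenced small RNA with 75-base single-end reads, checked them with FastQC 2.6.14 and counted them with miRDeep2 on mm10 and miRBase. The deposited values are whole-number read counts for 1211 pairs of mature miRNA and precursor, without normalization. The mismatch setting is not given in the sources used here, so near-identical miRNAs can share reads.

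From these counts, the precursor row with the highest total was kept for each of 1059 mature miRNAs. A minimum of 10 counts in 2 or more libraries left 274, which were fitted with edgeR 4.0.16 (R 4.3.3, TMM scaling, quasi-likelihood test, genotype only), and p-values were adjusted over all 274 by the Benjamini-Hochberg method. DESeq2 1.42.0 was an alternative. A standard error is the log2 fold change divided by the root of the F statistic. In 20 simulated sets of 274 miRNAs with 20 changed 4-fold, edgeR recovered 85.8% with 6.03% false calls. These sets gave every miRNA the same dispersion, so recovery at the wide spread of the miR-183 cluster was not measured. Recovery of a change as small as that of miR-204-5p (1.71-fold) was not measured either. Named miRNAs were the members, those with a member's seed, the 3 nearest profiles per member and fixed lists. Members and lists were chosen with earlier results of these data known. Libraries of a genotype differed by far more than sampling noise (chi-square per degree of freedom 57.6 in mutants and 255 in controls). Sequences and positions came from RefSeq GRCm38.p6 and GENCODE M21, both of the mm10 build.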

Additional observations from a re-analysis of the deposited data

How the results depend on the processing

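In the reported fit 0 members were called lower and 0 higher, and both counts stayed at 0 under every alternative with all 4 libraries. These were DESeq2's size factors, total counts, DESeq2's Wald test, upper-quartile scaling, red-cell miRNAs set equal, no count minimum, a minimum of 100 counts and a replicate block. Over all tested miRNAs these settings called 4, 0, 11, 3, 11, 14, 10 and 0 lower, in that order, and 0 higher. The number tested was 274, but 634 with no count minimum and 155 with a minimum of 100. Where none of all tested miRNAs was called, a count of 0 members carries no information. A test on 3 libraries with each left out was an alternative chosen after the data were seen. It changed the call of miR-183-5p to lower without Rx-Dicer 2. Such a fit leaves 1 library in a group, so only its fold changes are read. Of 31 tested values under alternatives with all libraries, 28 had the same sign and the same call, and 3 changed sign without a call: miR-96-5p at 0.31 with total counts only, miR-183-5p at −0.052 with equal red-cell miRNAs and at −0.38 with the replicate block. Replicate numbers come from the labels, and deviations of same-numbered libraries correlated at 0.085 over the tested miRNAs. With so few libraries this value cannot decide whether same-numbered libraries were paired. With the block, edgeR called 0 of all 274 lower in place of 7 (20 and 23 at an unadjusted p under 0.05). Among the members no call changed, miR-182-5p went from 0.76 to 0.08 and miR-204-5p was at −0.77 (adjusted p = 0.501). In the miR-183 cluster the second library of each genotype was the higher. With each library left out, the log2 ratio of the summed cluster ranged from −1.94 to 1.46 and that of summed miR-204 and miR-211 from −0.79 to −0.60. The fold change itself ranged from −1.74 to 1.63 for miR-182-5p, −2.19 to 1.28 for miR-183-5p, −1.46 to 1.49 for miR-96-5p (0.61 without Rx-Dicer 1) and −0.83 to −0.67 for miR-204-5p, so the sign turned with the library in all but the last. Depth limits miR-96-5p and miR-211-5p, with 6 to 41 counts a library. miR-96-5p did not reach the minimum of 100 counts, and miR-211-5p had a fit only with no count minimum.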
